A study of Homo sapiens with 13 samples.

Results

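Collagen genes were examined for chromatin marks in MDA-MB-231 cells, an established human cell line from a triple-negative, basal B breast cancer that was grown under standard conditions. The members were the protein-coding genes of GENCODE release 44 on hg19 whose symbol is COL followed by a number, A and a number. There were 44 such genes among 19894 protein-coding genes. All samples came from this one line, without genetic change or treatment, and the series had 13 samples. ChIP-seq had been carried out against H3K4me1, H3K4me3, H3K27ac, Pol II and CTCF, each in 2 replicate libraries. For p300/CBP there was 1 library, made from pooled immunoprecipitations. The 2 Input libraries were not analysed here.

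Each antibody was represented by a list of peak positions made after its replicates had been merged. No read count, height or score was attached to a peak, so depth was unknown, no replicate error could be computed and no statistical test was made. Counts of collagen genes are therefore given beside the share of all protein-coding genes with the same feature. RNA was not measured in these files. The cell type markers, chosen with earlier results of these data known, were first read at their TSSs. All 6 markers of mesenchymal-like breast cancer cells, VIM, CD44, AXL, EGFR, CAV1 and MSN, had H3K27ac and Pol II. Of all protein-coding genes 56.5% had both. Of the 6 luminal markers, FOXA1 and ERBB3 had both, PGR had H3K4me3 alone, and ESR1, GATA3 and CDH1 had no histone mark. Of the 4 fibroblast markers, PDGFRA and PDGFRB had H3K27ac without Pol II, and DCN and LUM had no H3K27ac.

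Collagens are trimers of chains that wind into a triple helix, and each chain is the product of its own gene. Fibrillar collagens build the fibres of the stroma, network-forming collagens such as type IV build basement membranes, and FACIT collagens sit on the surface of fibrils. Type VI collagen forms beaded filaments, type VII anchors epithelium to stroma, and a small group of collagens spans the plasma membrane. H3K4me3 marks promoters, H3K4me1 marks enhancers and the flanks of promoters, and H3K27ac accompanies activity at both. p300 and CBP are acetyltransferases that place H3K27ac, and CTCF is a DNA-binding protein found at insulators and loop anchors.

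H3K27ac was present at the promoters of 13 of the 44 collagen genes, among them COL1A1, COL4A1, COL4A2 and COL13A1, and most of the others had no histone mark at all. In the 3 kb window centred on the TSS of the canonical transcript, these 13 made up 29.5% of the collagen genes, against 61.4% of all windows. H3K4me3 was present at 17 (all genes, 62.7%), H3K4me1 at 17 (59.3%) and Pol II at 13 (58.4%). CTCF was found at 8 collagen windows, or 18.2%, close to the 17.6% of all windows. No collagen window held a p300/CBP peak, and 0.769% of all windows did. An overlap of at least 1 bp counted as presence, and the differences in share were not tested. When narrow peaks, those under the median width of each list, were left out, H3K27ac and Pol II were each left at 7 collagen windows (all genes, 48.4% and 37.3%) and H3K4me3 and H3K4me1 at 11 each (55.0% and 37.9%). In windows of 1 kb, H3K4me1 was at 5 (22.3%) and CTCF at 2 (11.1%).

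**Figure D1:**
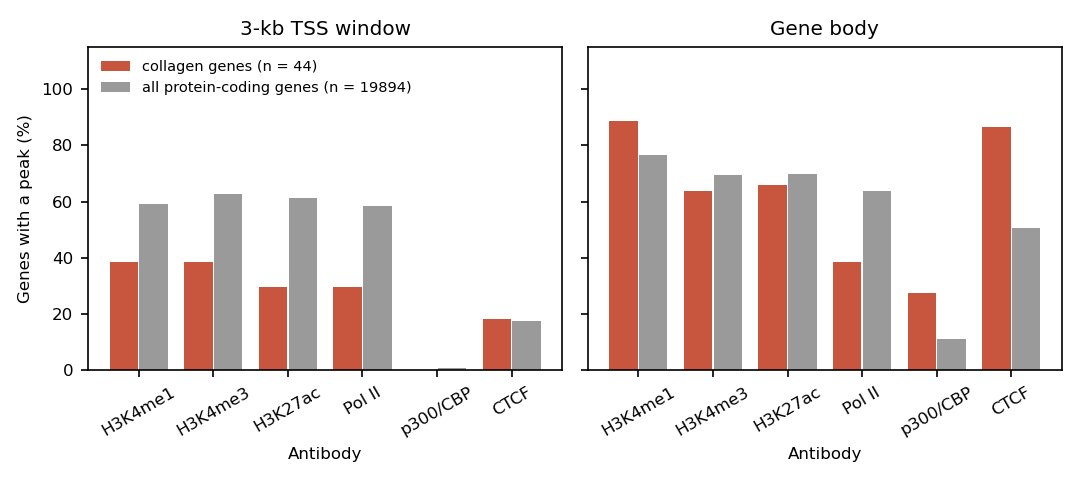
Percent of genes (y axis) with at least 1 peak of each antibody (x axis) in the 3 kb TSS window (left) and in the gene body (right). Red bars are the 44 collagen genes and grey bars the 19894 protein-coding genes. The red bars lie below the grey ones for the histone marks and Pol II at the TSS, and above them for H3K4me1, p300/CBP and CTCF in gene bodies.

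Each promoter was then placed in a class. The class of H3K27ac with Pol II held 9 collagen genes, namely COL1A1, COL5A1, COL4A1, COL4A2, COL8A1, COL12A1, COL6A1, COL7A1 and COL13A1, or 20.5%, where 56.5% of all windows fell. H3K27ac without Pol II was found at COL11A1, COL4A3, COL4A4 and COL19A1, 4 genes (all windows, 4.91%). H3K4me3 without H3K27ac was found at COL27A1, COL4A5, COL4A6, COL14A1 and COL18A1, 5 genes (2.68%). COL9A2 and COL9A3 had H3K4me1 as their only histone mark (5.55%). The remaining 24 genes, or 54.5%, had no histone mark in the window, against 30.4% of all windows. These 24 were COL1A2, COL2A1, COL3A1, COL5A2, COL5A3, COL11A2, COL24A1, COL8A2, COL10A1, COL9A1, COL16A1, COL20A1, COL21A1, COL22A1, COL6A2, COL6A3, COL6A5, COL6A6, COL28A1, COL17A1, COL23A1, COL25A1, COL15A1 and COL26A1.

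**Figure D2:**
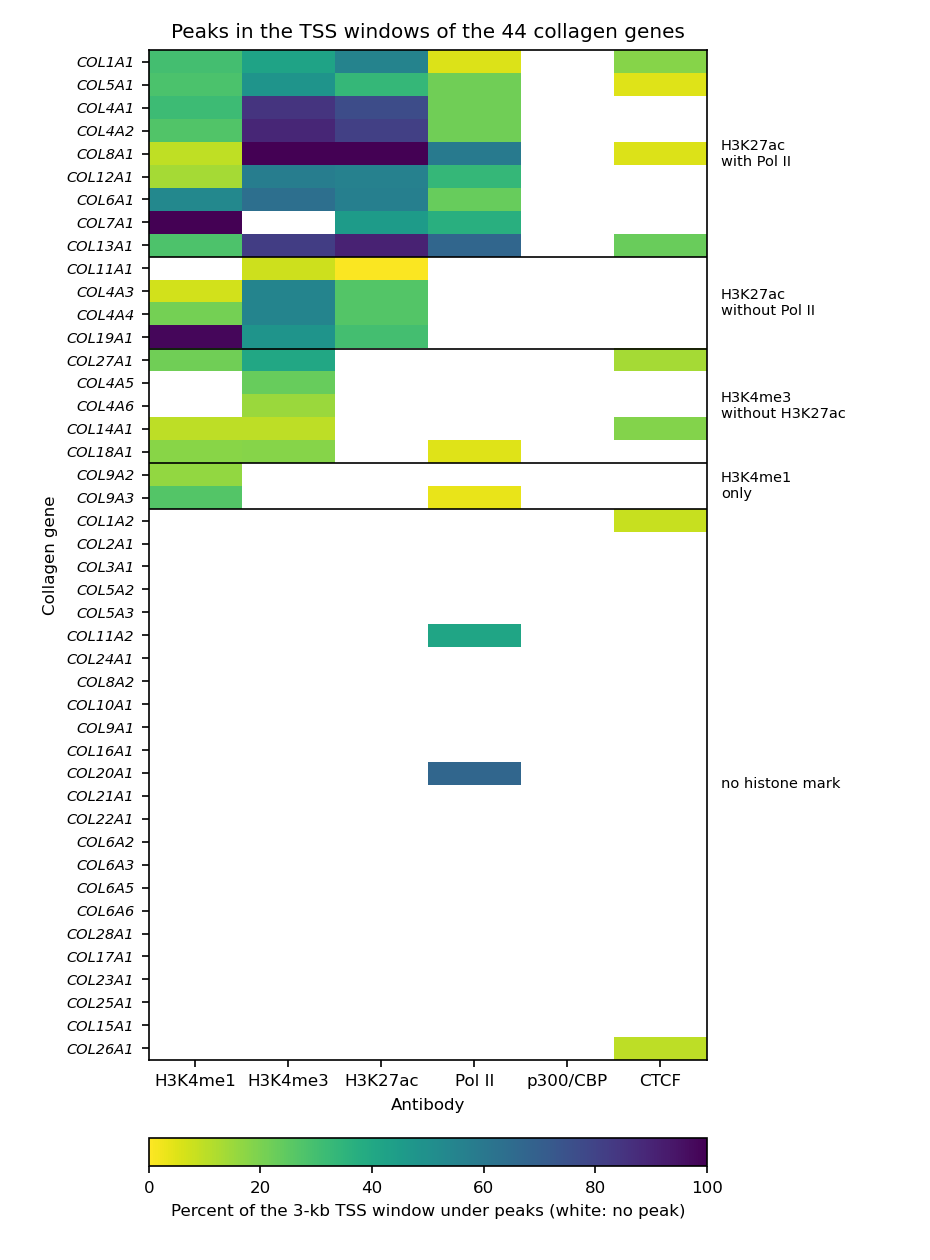
Share of the 3 kb TSS window under peaks (colour, 0 to 100%; white, no peak) for the 44 collagen genes (rows, grouped by promoter class) and the 6 antibodies (columns). COL8A1 is covered from end to end by H3K4me3 and H3K27ac, COL7A1 lacks H3K4me3, and the lower 24 rows hold 2 Pol II and 2 CTCF entries and no histone mark.

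The marks were spread over the structural groups. Of the 9 network-forming genes, 7 had H3K4me3 and 5 had H3K27ac, or 4 and 3 with each type IV pair that shares a start region counted as 1. Of the 11 fibrillar genes, 4 had H3K4me3 and 3 had H3K27ac. Of the 10 FACIT and related genes, 3 had H3K4me3 and 2 had H3K27ac. The beaded-filament and related group of 6 had 1 gene with both marks, COL6A1, and the 4 transmembrane collagens also had 1, COL13A1. The 2 multiplexin genes had H3K4me3 at COL18A1 and no H3K27ac, and COL26A1, in a group of its own, had CTCF alone. These are counts over small groups, and whether the groups differ was not tested.

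Chains of the same collagen type often differed in their marks, and whether they did so more than unrelated genes was not tested. Type I collagen, the main fibre of stroma, is made of COL1A1 and COL1A2 chains, and H3K27ac was at COL1A1 (chr17:48261462-48278993, minus strand) and not at COL1A2 (chr7:94024207-94060539, plus strand). The H3K27ac region of COL1A1 ran from -0.158 to 1.89 kb of its TSS, its H3K4me3 region from 0.242 to 1.89 kb and its Pol II peak, 0.250 kb wide, from 1.34 to 1.59 kb. Pol II thus covered 159 bp at the edge of the window. The only peak in the COL1A2 window was CTCF, from 0.594 to 0.844 kb, and the nearest H3K27ac region lay 92.5 kb from that TSS. COL1A1 also had a CTCF peak, from 0.592 to 1.14 kb.

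The 200 bases before the COL1A2 TSS are written below 5′ to 3′ in the direction of transcription, as read from the GRCh37 reference. They are shown because this promoter held a TATA box and CCAAT boxes while its window had no histone mark. Capitals mark the TATA box (TATAAA) and the CCAAT box (CCAAT, or ATTGG for the other strand).
COL1A2, chr7:94024007-94024206, plus strand: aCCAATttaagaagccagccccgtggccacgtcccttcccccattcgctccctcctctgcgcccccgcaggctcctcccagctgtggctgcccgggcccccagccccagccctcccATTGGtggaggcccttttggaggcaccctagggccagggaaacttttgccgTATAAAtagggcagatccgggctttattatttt
The TATA box began at base 168. Among the 44 collagen genes 6 held TATAAA in this stretch on either strand, or 13.6%, and 7.73% of all protein-coding genes did. Of these 6, 2 had H3K27ac at the TSS. The GC box (GGGCGG) was in 59.1% of collagen promoters (all genes, 56.4%) and the CCAAT box in 11 of 44 (30.4%).

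Types V, VI and VIII showed the same kind of split. In type V, which co-assembles with type I, COL5A1 had H3K27ac on both sides of its TSS, from -0.848 to -0.298 kb and from 0.852 to 1.30 kb, with Pol II from -0.498 to 0.152 kb between them. COL5A2 and COL5A3 had no peak in their windows. In type VI, COL6A1 had H3K4me3 from -0.983 to 0.917 kb, H3K27ac from -0.933 to 0.767 kb and Pol II from -0.483 to 0.217 kb. COL6A2, COL6A3, COL6A5 and COL6A6 had no peak in theirs, so 1 of 5 chains was marked. COL6A5 and COL6A6 had 0 and 1 H3K4me1 peaks over body and flanks, and no H3K27ac peak.

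In type VIII, COL8A1 carried a H3K27ac region of 7.70 kb, from -5.29 to 2.41 kb, and H3K4me3 from -1.84 to 3.26 kb, with Pol II from -1.59 to 0.263 kb. COL8A2 had none of these at its canonical TSS. The start of 2 other COL8A2 transcripts, COL8A2-201 and COL8A2-203, lay 25 kb downstream, and its window held H3K4me1, H3K4me3, H3K27ac and CTCF but no Pol II. The H3K4me3 peak there was 250 bp wide, from 25.1 to 25.4 kb. COL8A2 was the only collagen gene whose histone marks were found solely at a TSS other than the canonical one. CTCF was found solely in the windows of other TSSs in COL12A1, COL20A1 and COL17A1. In COL12A1 and COL20A1 the nearest CTCF peak was 1.52 and 1.54 kb from the canonical TSS, just outside its window. In COL17A1 it was 4.84 kb away.

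Of the other genes with H3K27ac and Pol II, COL12A1, a FACIT collagen, had H3K4me3 from -0.231 to 2.17 kb, H3K27ac from -0.181 to 2.17 kb and Pol II from -0.181 to 0.819 kb. COL7A1, the chain of anchoring fibrils, was the only gene of the 13 with H3K27ac that lacked H3K4me3 at the TSS. Its window lay whole within a H3K4me1 region from -5.04 to 2.66 kb, with H3K27ac from -1.34 to -0.488 kb and from 0.0620 to 0.562 kb. Its Pol II peak ran from -6.44 to -0.388 kb and ended before the TSS. At the far end of COL7A1, the UCN2 TSS lay inside a H3K4me3 region from 30.8 to 32.1 kb and a Pol II peak from 30.5 to 34.1 kb, and this was the Pol II peak counted in the COL7A1 body.

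The calls for H3K27ac without Pol II differed in extent. At COL11A1, a fibrillar chain, the H3K27ac peak ran from 1.48 to 1.78 kb and covered 23 bp of the window, and the nearest Pol II peak was 494 kb away. At COL19A1 H3K4me1 ran from -1.45 to 1.80 kb, H3K4me3 from -0.0470 to 1.40 kb and H3K27ac from 0.453 to 1.35 kb, and the nearest Pol II peak was 69.1 kb away. A TSS of LMBRD1 also lay in this window. Across the 13 windows with H3K27ac, the share of the window under it ranged from 0.767% to 100%, with a median of 55.3%.

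Not every Pol II call was centred on a collagen TSS. Pol II peaks covered the canonical TSS base at 8 genes (51.2% of all genes), namely COL5A1, COL4A1, COL4A2, COL8A1, COL12A1, COL6A1, COL13A1 and COL20A1. At COL20A1 and COL11A2, which had no histone mark, the peaks ran from -5.04 to 0.513 kb and from -1.91 to -0.256 kb. At COL9A3 a peak from -7.85 to -1.40 kb reached 99 bp into the window. At COL18A1, whose product is the source of endostatin, a Pol II peak of 150 bp began 0.0210 kb after the TSS, beside H3K4me3 from 0.721 to 1.27 kb, and the nearest H3K27ac region was 22.0 kb away.

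At the 5 genes with H3K4me3 and no H3K27ac, the H3K4me3 peaks were from 0.30 to 1.20 kb wide. COL27A1, a fibrillar chain, had H3K4me3 from -0.0660 to 1.13 kb, H3K4me1 from -1.22 to -0.566 kb and a CTCF peak from -0.316 to 0.0840 kb, the only CTCF peak that covered a canonical collagen TSS base (all genes, 4.08%). Its 2 H3K27ac regions in the body covered 4.27% of it and the nearest was 66.1 kb from the TSS. COL14A1, a FACIT chain, had H3K4me3 from -1.34 to -1.04 kb, overlapped by a CTCF peak from -1.69 to -1.24 kb and followed by another from -0.840 to -0.540 kb, and the nearest H3K27ac region was 142 kb away. COL9A2 and COL9A3, chains of cartilage type IX collagen, had no H3K4me3 in their windows. Their H3K4me1 regions ran from 1.01 to 4.56 kb in COL9A2 and, in COL9A3, from -3.00 to -1.15 kb and from 1.05 to 3.60 kb. COL9A1, the third chain, had no peak in its window.

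CTCF was in the windows of COL1A1, COL1A2, COL5A1, COL27A1, COL8A1, COL14A1, COL13A1 and COL26A1. It lay after the TSS in COL1A1, COL1A2, COL5A1 and COL26A1 (1.04 to 1.34 kb in the last) and before it in COL8A1 (-1.54 to -1.34 kb), COL14A1 and COL13A1. Of the 8 genes, 4 belonged to the class of H3K27ac with Pol II, 2 to that of H3K4me3 without H3K27ac and 2 had no histone mark.

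Type IV collagen is encoded by pairs of genes that start back to back and are transcribed in opposite directions, and the pairs differed in their marks. COL4A1 (chr13:110801310-110959504, minus strand) and COL4A2 (chr13:110958159-111165556, plus strand) encode the chains found in nearly all basement membranes, and their canonical TSSs are 127 bp apart. The same H3K4me3 region, from -1.18 to 1.97 kb of the COL4A2 TSS, covered both, and a Pol II peak from -0.180 to 0.120 kb lay across both TSSs. H3K27ac flanked them, from -1.48 to -0.380 kb and from 0.170 to 2.17 kb. A window shared in this way cannot assign a peak to one of the genes.

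The 126 bases between the COL4A1 and COL4A2 TSSs are shown as the stretch common to both promoters, written along the plus strand of GRCh37 with the CCAAT box and the GC box in capitals.
COL4A1 and COL4A2, chr13:110959505-110959630, plus strand: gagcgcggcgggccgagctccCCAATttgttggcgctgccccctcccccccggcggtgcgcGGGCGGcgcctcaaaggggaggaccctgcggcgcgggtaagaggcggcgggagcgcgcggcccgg
It was 80.2% G and C and held 20 CG dinucleotides.

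COL4A3 and COL4A4, whose chains join in the kidney filter, start 419 bp apart. They shared H3K4me3 from -1.19 to 0.461 kb and H3K27ac from -0.939 to -0.139 kb of the COL4A3 TSS, and a H3K4me1 region. Pol II was absent there, the nearest peak being 160 kb from COL4A3, and COL4A3 and COL4A4 had no candidate active enhancer within 50 kb. COL4A5 and COL4A6, on the X chromosome, start 1416 bp apart. They shared a H3K4me3 peak from -0.367 to 0.333 kb of the COL4A5 TSS, and had no H3K27ac, H3K4me1 or Pol II peak in body or flanks. With each pair counted as 1, H3K27ac was at 11 of the windows instead of 13 and H3K4me3 at 14 instead of 17.

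Marked collagen promoters were then counted by CpG content. Promoters were called CpG-rich where the 1 kb around the TSS had at least 50% GC and an observed to expected CpG ratio of at least 0.6. Of the 44 collagen genes 22 were CpG-rich, and 65.0% of all genes were. H3K4me3 was at 10 of these 22, or 45.5%, and at 84.2% of all CpG-rich promoters. H3K27ac was at 7 of them, or 31.8%, against 81.3%. Among the 22 collagen genes that were not CpG-rich, H3K4me3 was at 7 (31.8%, all genes 22.7%) and H3K27ac at 6 (27.3%, all genes 24.5%). Among CpG-rich promoters the collagen shares thus lay below those of all genes, and among the rest the counts were near the background. COL23A1, COL25A1, COL15A1 and COL9A3, chosen after their values had been seen, had ratios of 0.893, 0.882, 0.866 and 0.889 and no H3K4me3 at the TSS.

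Collagen genes are long, and their bodies gave other counts than their promoters. Their median length was 145 kb, and that of all protein-coding genes 27.6 kb. At least 1 H3K4me1 peak was in the body of 39 collagen genes (all genes, 76.5%), H3K27ac in 29 (69.8%), H3K4me3 in 28 (69.3%) and Pol II in 17 (63.6%). Leaving out the first 1.5 kb of the body took H3K4me3 to 18 collagen genes (39.2% of all genes) and Pol II to 10 (34.0%). H3K27ac was then in 27 (44.3%) and H3K4me1 in 38 (70.4%). CTCF was in the body of 38, or 86.4% (50.6%), and p300/CBP of 12, or 27.3% (10.9%). Per 100 kb of body the numbers for CTCF and p300/CBP lay closer together. Collagen genes had 1.69 CTCF peaks and 0.389 p300/CBP peaks per 100 kb, and all genes 1.59 and 0.334. H3K4me1 (3.15 against 4.19), H3K4me3 (0.658 against 1.47), H3K27ac (1.41 against 2.23) and Pol II (0.463 against 1.79) were sparser in collagen genes. Peaks at the start of a gene count in these densities, and collagen genes are longer. The part of length in the densities was not tested.

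COL13A1, a transmembrane collagen of cell adhesion sites, stood apart in Pol II. Pol II peaks covered 95.9% of its body (chr10:71561636-71724031, plus strand, 162 kb), and it was the only collagen gene with at least 10% of its body covered, where 20.1% of all genes were. The next highest were COL8A2 with 6.04% and COL17A1 with 4.67%. Among the 3648 protein-coding genes of at least 100 kb, 1.48% reached 10%, and 2 reached the value of COL13A1, itself included. Without COL13A1, Pol II peaks covered 0.199% of the summed bodies of collagen genes, and 2.52% with it (all genes, 2.42%).

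The 8 Pol II peaks of COL13A1 were separated by short gaps. The first ran from -0.511 to 25.5 kb, and the last, 79.3 kb wide, from 83.5 to 163 kb, just past the annotated end. H3K27ac was found in the first part of the gene. Its 11 regions in the body covered 28.1% of it, and the last ended at 74.1 kb. The widest were from -1.21 to 9.34 kb and from 57.5 to 69.4 kb. H3K4me3 ran from -0.961 to 6.79 kb, and 6 more H3K4me3 peaks lay between 16.8 and 68.2 kb. H3K4me1 covered 50.6% of the body, the highest share of any collagen gene, and 2 candidate active enhancers of 45.8 and 24.9 kb, from 3.74 to 49.5 kb and from 50.7 to 75.6 kb, lay one after the other along the gene.

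**Figure D3:**
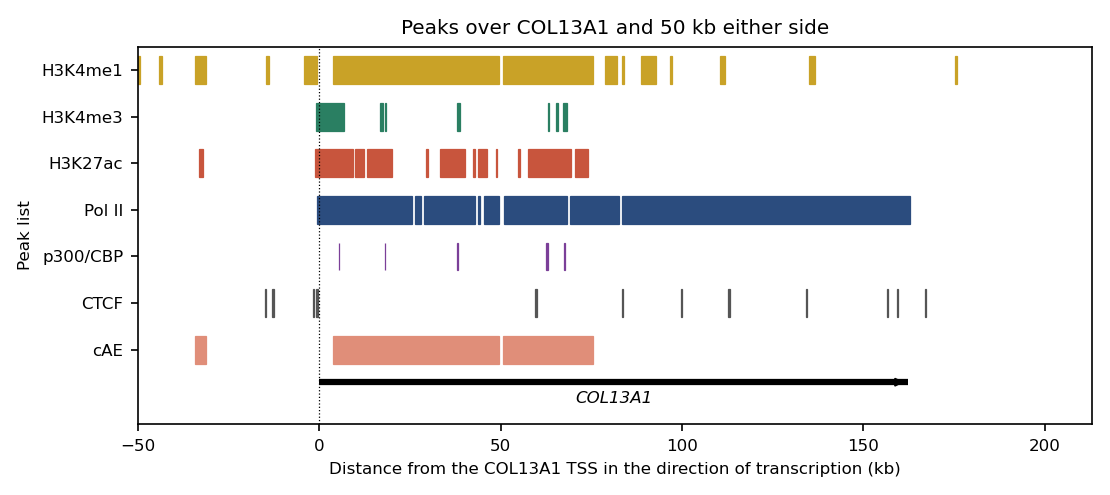
Peaks of the 6 antibodies and candidate active enhancers (cAE) over COL13A1 and 50 kb on either side. The x axis gives the distance from the TSS in kb and each row is 1 list. Pol II extends to 163 kb, while H3K27ac ends at 74.1 kb and the 5 p300/CBP peaks lie between 5.44 and 67.8 kb.

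Thresholding joined Pol II bins across gaps of up to 800 bp, so a wide peak need not be continuous signal. A lncRNA, ENSG00000289193, and 2 miRNA genes, AC025426.1 and AL138925.1, overlap COL13A1, and peaks without strand cannot be divided between them. The window also held 2 CTCF peaks, from -1.81 to -1.31 kb and from -0.911 to -0.411 kb. The 200 bases upstream of the TSS are shown because this was the collagen promoter with the widest Pol II domain, and they held none of the boxes searched.
COL13A1, chr10:71561462-71561661, plus strand: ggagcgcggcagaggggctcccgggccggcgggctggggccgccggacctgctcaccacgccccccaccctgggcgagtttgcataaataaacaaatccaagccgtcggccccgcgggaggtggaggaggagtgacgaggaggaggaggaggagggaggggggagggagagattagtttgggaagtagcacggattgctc

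**Figure D4:**
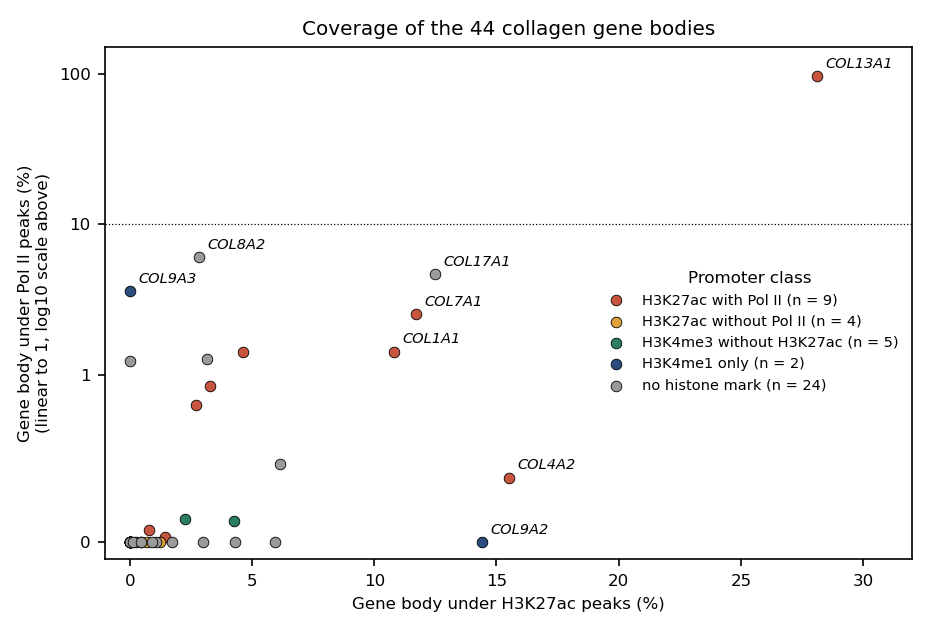
Percent of each collagen gene body under Pol II peaks (y axis, linear to 1 and log10 above) against the percent under H3K27ac peaks (x axis). Each point is 1 of the 44 genes, coloured by promoter class, and the dotted line is 10%. COL13A1, at 95.9% and 28.1%, is the only point above the line, and COL4A2 has 15.5% H3K27ac with 0.386% Pol II.

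Candidate active enhancers (cAEs) were taken as H3K4me1 regions that overlapped H3K27ac, and candidate inactive enhancers as those that did not. Regions touching the 3 kb window of a canonical protein-coding TSS were left out. Regions over other annotated TSSs were kept, so a cAE can contain one. At least 1 cAE lay in the body or within 50 kb of 33 of 44 collagen genes, against 69.0% of all genes. The median was 2 cAEs per collagen gene and 1 over all genes. Within bodies there were 60 cAEs in collagen genes, 0.897 per 100 kb, and 1.06 per 100 kb over all genes. No cAE was found for 11 genes, COL1A2, COL4A3, COL4A4, COL4A5, COL4A6, COL10A1, COL9A1, COL14A1, COL20A1, COL6A5 and COL6A6.

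COL4A2 had the most cAEs, 13, of which 9 lay in its body, followed by COL4A1 with 11, COL1A1 and COL8A1 with 8 each and COL5A2 with 7. The cAEs of COL4A1 and COL4A2 overlap, since 5 of the regions were counted for both. In COL4A2, 15 H3K27ac regions covered 15.5% of the body, and cAEs reached from 1.72 to 149 kb, the widest from 13.6 to 28.2 kb. The body of COL4A1 held 2 cAEs, from 46.7 to 48.2 kb and from 51.9 to 52.9 kb, and 5 others lay beyond its far end. Pol II covered 0.386% of the COL4A2 body and 0.0341% of the COL4A1 body.

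**Figure D5:**
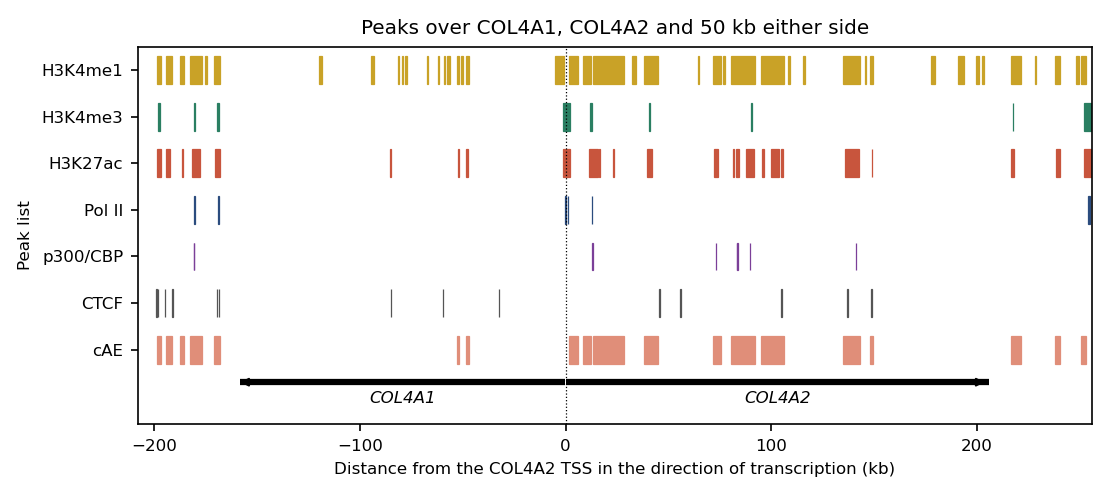
Peaks of the 6 antibodies and cAEs over COL4A1 and COL4A2 and 50 kb on either side. The x axis is the distance from the COL4A2 TSS in kb, with COL4A1 running to the left and COL4A2 to the right. H3K27ac regions and cAEs are spread over the first 149 kb of COL4A2, and 2 cAEs lie in the body of COL4A1.

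COL1A1 had 1 cAE in its 17.5 kb body, from 1.59 to 5.89 kb, and 7 in the flanks, where H3K4me3 regions of other promoters also lay. COL8A1 had 4 in its body, the widest from 142 to 145 kb. COL5A2 had 6 in the annotated gene, which extends 45.6 kb upstream of the canonical TSS. There 4 cAEs lay between -44.8 and -22.6 kb, with H3K4me3 from -31.1 to -30.3 kb and from -24.6 to -24.2 kb and a Pol II peak from -31.3 to -30.4 kb. No TSS of a basic transcript was closer than 24046 bp to these peaks.

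H3K27ac inside a gene with none at its TSS was a common arrangement among collagens. It was seen in 17 of 44 genes, or 38.6%, and in 9.63% of all protein-coding genes. Only genes without H3K27ac at the TSS could show it, and these were 31 collagen genes and 7676 of all 19894. Of those, 17 and 1915 showed it, so both shares above also carry the difference at promoters. Length differed between collagen genes and all genes as given above, and its part was not tested. In COL2A1, the cartilage collagen, H3K4me3 ran from 1.61 to 3.61 kb, H3K27ac from 2.36 to 3.36 kb and Pol II from 2.71 to 3.11 kb, just outside the window. In COL17A1, the hemidesmosome collagen, H3K4me3 ran from 35.3 to 36.0 kb, with H3K27ac from 34.2 to 37.0 kb, Pol II from 35.5 to 36.2 kb and a p300/CBP peak from 36.0 to 36.3 kb. The miRNA gene MIR936 starts 1657 bp from this H3K4me3 peak. COL15A1 had 5 such H3K27ac regions, between 45.2 and 116 kb. COL17A1 and COL15A1 were chosen as examples after their values had been seen, as was COL2A1.

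Over the 31 collagen genes without H3K27ac at the TSS, 15 H3K4me3 peaks lay inside 11 gene bodies away from the canonical window. That is 35.5% of the 31 genes, where 20.2% of the 7676 protein-coding genes without H3K27ac at the TSS had such a peak, with length as given above. Only 1 of the 15, in COL8A2, was within 1.5 kb of a TSS of a basic transcript of the same gene. None was within that distance of a TSS of another gene. The choice of these peaks had already left out any near the canonical TSS. The nearest H3K27ac region was at a median of 34.2 kb from the TSS of these 31 genes, with a range from 1.61 to 348 kb. For 8 of them it was over 100 kb away. The same distances are not given for all genes, so they cannot be read as particular to collagen genes.

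p300/CBP peaks occurred in the body or within 50 kb of 18 collagen genes, or 40.9%, against 25.7% of all genes. The span searched was longer for longer genes. Per 100 kb of body there were 0.389 p300/CBP peaks in collagen genes and 0.334 in all genes. Overlapping loci were joined, which left 36 peaks. Of the 36, 30 overlapped H3K27ac, or 83.3%, and 28 lay in cAEs, or 77.8%. For the 6728 p300/CBP peaks in the loci of all protein-coding genes the shares were 71.4% and 69.5%. COL4A2 had 6 and COL13A1 had 5, and COL11A1 and COL4A1 had 3 each within body and flanks. In COL13A1 all 5 lay in introns of the canonical transcript, from 5.44 to 67.8 kb. In COL4A2 all 6 were intronic too, between 13.1 and 141 kb, and 5 of them lay in cAEs.

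AP-1 is the family of Fos and Jun dimers to which Fra-1 and Fra-2 belong. The authors give its consensus as TGACTCA or TGAGTCA. The looser motif TGANTCA was searched. This motif was in 12 of the 36 p300/CBP peaks at collagen loci, or 33.3% (95% Wilson interval 20.2% to 49.7%, counting error only). It was in 38.6% of the p300/CBP peaks in the loci of all protein-coding genes and in 28.1% of the whole list, so the collagen interval takes in both. With 100 bp added on either side of each peak, the shares were 50% at collagen loci, 54.4% in the loci of all protein-coding genes and 40.2% in the whole list. The 12 peaks held 13 matches, of which 12 were TGACTCA on one strand or the other (TGAGTCA is its reverse complement) and 1 was TGATTCA. Peaks with a match were wider, with a median of 250 bp, than those without, with a median of 100 bp.

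The 13 matches are shown with 11 bases on either side, as the letters on which the count rests, along the plus strand of GRCh37 with the motif in capitals.
COL24A1, chr1:86316095-86316123: acctaaggaaaTGACTCAtaccctatgct
COL13A1, chr10:71579775-71579803: caaataccgcaTGACTCAttttcttacct
COL13A1, chr10:71624346-71624374: gcccagcacagTGACTCAcacagtaggca
COL4A2, chr13:111032827-111032855: tgtatacgtgcTGACTCAtcggattctca
COL21A1, chr6:55966042-55966070: cttgtggtttgTGACTCAcactgtttgca
COL28A1, chr7:7478697-7478725: ctgcctccgtcTGACTCAtgtcctctgaa
COL28A1, chr7:7532359-7532387: ctgcctcaaaaTGAGTCAtccacatttat
COL17A1, chr10:105809451-105809479: aaaccacccctTGAGTCAcagctttatca
COL5A2, chr2:190086719-190086747: tgagtccattcTGAGTCAcaggcctgagg
COL18A1, chr21:46784052-46784080: cggggcactgcTGAGTCAtaagttccttt
COL18A1, chr21:46784182-46784210: tggccgcagtaTGAGTCAcccaggccatg
COL7A1, chr3:48601617-48601645: cccccccacagTGAGTCAtctgccagggt
COL5A1, chr9:137494522-137494550: aaccctgagcaTGATTCAcagcccagacc
Of these, the peaks of COL5A1 and COL18A1 lay upstream of the gene, at -39.2 and -41.0 kb, the COL7A1 peak lay over an exon at the far end of the gene, 287 bp from the UCN2 TSS, the COL5A2 peak lay in the annotated gene upstream of its canonical TSS, and the others were intronic. A match is a run of letters and does not show that AP-1 was bound there.

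For COL13A1 and COL4A2, which had the most p300/CBP peaks, a whole peak with an AP-1 match is given, 5′ to 3′ on the plus strand with the match in capitals. The COL13A1 peak starts at 18.0 kb and the COL4A2 peak at 73.1 kb of the respective TSS. Both overlap H3K27ac.
COL13A1 intron, chr10:71579651-71579850: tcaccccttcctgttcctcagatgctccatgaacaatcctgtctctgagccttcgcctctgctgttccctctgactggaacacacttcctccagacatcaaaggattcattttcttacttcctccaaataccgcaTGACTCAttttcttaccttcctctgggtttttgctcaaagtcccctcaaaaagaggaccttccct
COL4A2 intron, chr13:111032701-111032950: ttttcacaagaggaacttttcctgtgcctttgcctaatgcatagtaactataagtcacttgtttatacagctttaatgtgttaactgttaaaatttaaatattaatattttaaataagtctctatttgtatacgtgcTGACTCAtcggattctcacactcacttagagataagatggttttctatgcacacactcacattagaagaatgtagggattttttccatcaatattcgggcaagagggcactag

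CTCF sites of the collagen genes resembled the whole list in the share with the CTCF core consensus. It was in 37 of 226 CTCF peaks at collagen loci, or 16.4%, and in 17.0% of all 39596. COL13A1 and COL24A1 had the most CTCF peaks in their bodies, with 7 each.

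The genes that modify, secrete and bind collagens were read in the same way. Of 17 genes for modification and folding, 15 had H3K27ac with Pol II at the TSS. They include SERPINH1, the collagen chaperone, with 59.5% of its 10.7 kb body under Pol II peaks, PPIB with 81.1% of 7.39 kb, and P4HB, a prolyl hydroxylase subunit, with 43.2% of 17.7 kb. P4HA3 had no histone mark and COLGALT2 had H3K4me3 without H3K27ac. Pol II covered at least 10% of the body in 8 of these genes. Of all protein-coding genes 20.1% reached this, and of those of at least 100 kb 1.48% did. Counts for lists of genes that differ in length are thus not directly comparable.

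Of 15 genes for secretion, processing and cross-linking, 10 had H3K27ac at the TSS. The lysyl oxidases LOX, LOXL1, LOXL2, LOXL3 and LOXL4 all had H3K27ac and Pol II. Pol II covered at least 10% of the body in LOXL1 (37.1%), LOXL3 (28.6%) and PCOLCE (18.1%), 3 of the 15 genes, and in 20.1% of all genes. LOXL2 had 9 cAEs and 7 p300/CBP peaks in body and flanks. SPARC had H3K27ac without Pol II, and ADAMTS2, which trims the N-propeptide, had no histone mark. Of 10 receptor genes, 6 had H3K27ac, namely ITGA1, ITGA2, ITGA10, ITGB1, MRC2 and DDR1, while DDR2, ITGA11, GP6 and LAIR1 had no histone mark at the TSS. ITGA2 had 9 cAEs and ITGB1 7 p300/CBP peaks. The H3K27ac counts of 15 of 17, 10 of 15 and 6 of 10 stand beside 13 of 44 collagen genes and 61.4% of all genes.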

How the data were processed

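ChIP-seq of 5 antibodies in 2 libraries each and of p300/CBP in 1 library was used, and the 2 Input libraries were not. The authors aligned reads to hg19 with BWA-backtrack (the submitters' notes name Bowtie2), used PASHA to bin uniquely mapped reads at 50 bp, merged replicates and thresholded the signal in the Integrated Genome Browser. Thresholds were 30 for H3K4me1 and H3K4me3, 50 for H3K27ac, Pol II and CTCF and 60 for p300/CBP. The largest gap bridged between bins was 1000 bp for H3K4me1, 500 bp for H3K4me3 and H3K27ac, 800 bp for Pol II and 50 bp for p300/CBP and CTCF. The names of the deposited lists call the signal scaled and background-subtracted for histone marks and p300/CBP, scaled for Pol II and neither for CTCF, so peaks of different antibodies are not on the same scale. They give positions in bp and no other value, and depth is unknown. The lists of p300/CBP (13984 peaks), Pol II (26065) and CTCF (39596) each hold more peaks than the authors report. No column of another sample was found.

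Positions were read in Python 3.11.15 with NumPy 2.4.6, pandas and SciPy 1.17.1, and figures drawn with matplotlib 3.10.9. Starts were taken as the first base of a peak and ends as the first base after it, which the lists do not state. Genes and TSSs came from GENCODE 44 on GRCh37, whose chromosome lengths were checked against the lists (chromosome M aside), with 1 canonical TSS per gene and, as an alternative, every basic TSS. The gene body is the annotated span. Overlap counts on simulated data were wrong in 0 of 3242 comparisons. Letters were searched on both strands, and the CTCF core consensus had 12 letters. The shares of promoters with a box refer to the 200 bp before the TSS.

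Collagen genes, gene lists and markers were chosen with earlier results of these data known. Collagen genes were named in full where the window held H3K27ac, where Pol II covered at least 10% of the body, where they were among the 5 with the most cAEs, for the type IV pairs, and where a mark was found solely at another TSS, and others were named as examples. Alternatives changed the window, the TSSs, the overlap rule, peak width, limits, flanks and the definition of cAEs. A marker list and a promoter sequence are not reported here.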

Additional observations from a re-analysis of the deposited data

How the results depend on the processing

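No paired analysis was possible because each antibody had 1 list, called on merged replicates, which also kept any replicate from being left out. Of 69 alternative values for 21 results, 50 stayed within 1.5 times the reported count or inside its interval, and 19 did not. Of the 69, 7 were added with the data in view. Shares in parentheses are those of all protein-coding genes under the same setting.

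Keeping peaks of median width or more left H3K4me1 and H3K4me3 at 11 collagen windows each (37.9% and 55.0%), H3K27ac and Pol II at 7 each (48.4% and 37.3%) and CTCF at 5 (11.3%), with 3 genes in the class of H3K27ac with Pol II (33.4%) and 5 with H3K4me1 as the only histone mark (6.17%). In gene bodies it left H3K4me3 in 14 genes (59.0%), H3K27ac in 16 (56.4%) and Pol II in 9 (45.5%). A window of 1 kb gave 5 windows with H3K4me1 (22.3%) and 2 with CTCF (11.1%), and a window of 5 kb gave 13 with CTCF (22.0%). With the peak centre required inside, H3K4me1 was at 10 windows (38.7%). Without the first 1.5 kb, H3K4me3 was in 18 gene bodies (39.2%) and Pol II in 10 (34.0%). A limit of 5% gave 2 genes covered by Pol II (27.2%), and without COL13A1 there were 0 at 10%. The AP-1 share was 50% with 100 bp added to each side of the p300/CBP peaks. The cause of these differences was not tested, and the lists hold no height by which to rank peaks.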
